A study of Homo sapiens with 24 samples.

Results

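The genes described here are the numbered zinc finger genes of human chromosome 19: rows of the count table whose symbol is ZNF followed by digits, whose chromosome is 19, and whose mean raw count over all libraries was at least 50. Of 34618 rows in the table, 245 were numbered ZNF genes on chromosome 19 and 152 passed the minimum. Just inside it were ZNF546, with a mean count of 50.9, and ZNF324, with 51.2. Just outside were ZNF221, with 48.9, and ZNF416, with 48.7. For comparison, 172 numbered ZNF genes on other chromosomes and 618 other chromosome 19 genes had the same minimum count.

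RNA was sequenced from HepG2, a human hepatocellular carcinoma line, in 24 libraries. Cells carried a lentiviral short hairpin RNA that was a non-specific control (shCtrl) or was directed against SETD2 (shSETD2) or METTL14 (shMETTL14), and all 3 lines had been selected with puromycin at 1 µg/mL. Each line was collected untreated (0 h) and after 1, 3 or 6 h of actinomycin D at 5 µg/mL, an inhibitor of RNA synthesis, and every combination of line and time has 2 libraries. The labels tell apart no hairpins against the same target, so an effect of one hairpin sequence cannot be told apart from loss of its target, and control cells carry the same kind of virus and selection. The pairs are described as biological replicates without a statement of what separated them, so p-values measure the spread between these libraries.

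Most genes of this family encode C2H2 zinc finger proteins, in which a row of fingers joined by a conserved linker reads DNA. Many also carry a KRAB domain, which recruits the corepressor TRIM28 and, through it, the histone H3 lysine 9 methyltransferase SETDB1, and a well-known role of these proteins is the silencing of transposable elements. The genes arose largely by tandem duplication and lie in clusters along chromosome 19. Messenger RNAs of zinc finger transcription factors are known as a short-lived class. SETD2 trimethylates histone H3 at lysine 36 in transcribed genes, and METTL14 works with METTL3 in the enzyme complex that places N6-methyladenosine (m6A) in RNA.

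What most members share in sequence is the stretch that codes for the linker between fingers. A degenerate run of 17 bases coding for this linker, searched on the sense strand of the longest protein-coding transcript of each gene in GENCODE v29, occurred in 119 of 152 members (78.3%). It occurred in 58.6% of the numbered ZNF genes on other chromosomes and in 2.64% of all genes with a mean count of at least 50. Members held a median of 5 such runs and at most 24. Matches were counted in any frame and any part of the transcript. In ZNF528, ZNF791, ZNF226 and ZNF544 none lay in frame within the coding sequence of the transcript used. The repeats below, each 1 finger unit read 5′ to 3′ from one linker to the next, were chosen to show how alike the coding sequences of members are. Capitals mark the linker-coding runs, whose starts lie 84 bases apart in frame.
ZNF91: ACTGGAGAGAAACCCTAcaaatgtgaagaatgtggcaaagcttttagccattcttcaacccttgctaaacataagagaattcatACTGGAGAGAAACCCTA
ZNF430: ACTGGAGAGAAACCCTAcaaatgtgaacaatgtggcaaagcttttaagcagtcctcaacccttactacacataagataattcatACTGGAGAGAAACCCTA
ZNF566: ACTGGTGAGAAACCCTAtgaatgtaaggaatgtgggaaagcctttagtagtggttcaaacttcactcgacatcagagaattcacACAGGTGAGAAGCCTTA
ZNF841: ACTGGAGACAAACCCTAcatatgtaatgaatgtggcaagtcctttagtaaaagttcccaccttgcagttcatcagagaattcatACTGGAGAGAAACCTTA
These units start at coding base 865 in ZNF91, 766 in ZNF430, 748 in ZNF566 and 1018 in ZNF841. Near-identical copies limit what the counts can resolve: in 25 members more than 10% of the 50-base windows of the transcript also occurred in a transcript of another gene. A further limit is overlap of gene bodies, since 66 members overlapped no other row of the table and whether counting used strand is not stated.

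Library totals ran from 18308638 to 31402091 counts, so that 3 counts corresponded to 0.0955 to 0.164 CPM (counts scaled to library size), and no 2 libraries were identical. SETD2 was lower in shSETD2 at 0 h (86.1 ± 6.11 against 129.6 ± 1.33 CPM in shCtrl; SD, n = 2) and METTL14 was lower in shMETTL14 (14.5 ± 0.76 against 29.7 ± 0.53 CPM). METTL14 was higher in shSETD2 than in shCtrl (log2 fold change 0.37, adjusted p = 0.0026). Over all libraries the 6 hepatocyte markers summed to 24199 to 106296 CPM, the 5 fibroblast markers to 4.17 to 19.1 CPM with DCN at 0, the 4 blood and immune markers to 2.33 to 5.62 CPM with PTPRC at 0, and the 3 endothelial markers to 0.277 to 2.84 CPM. Some of these sums moved with the line at 0 h. Hepatocyte markers summed to 24199 to 24667 CPM in shCtrl, 55265 to 55703 CPM in shSETD2 and 26339 to 26648 CPM in shMETTL14. Fibroblast markers summed to 4.17 to 4.94, 9.07 to 9.15 and 7.13 to 7.33 CPM, and endothelial markers to 0.277 to 0.31, 0.881 to 0.907 and 1.09 to 1.37 CPM, in the same order. The mitochondrial share of counts was 6.89% to 6.995% in shCtrl, 8.67% to 8.90% in shSETD2 and 6.99% to 7.09% in shMETTL14. The part of these differences in the results at 0 h was not tested. In bulk RNA, fewer cells expressing a gene and less RNA per cell cannot be told apart.

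Before the drug the members were weakly expressed. Their median level in shCtrl was 2.23 RPKM (counts scaled to exon length and library size), against 6.79 RPKM over all genes with a mean count of at least 50, and 131 of the 152 reached 1 RPKM. The median was 2.11 RPKM in shSETD2 and 2.61 RPKM in shMETTL14. ZNF146, whose protein consists almost only of fingers and has no KRAB domain, was the most abundant by mean RPKM over the 24 libraries, at 16.04, followed by ZNF428 at 7.89 and ZNF787 at 7.64. ZNF146 stood at 31.2 and 30.3 RPKM in the shCtrl libraries at 0 h.

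All members together took 0.213% and 0.219% of the counts in the shCtrl libraries at 0 h. In shSETD2 they took 0.189% and 0.191%, and in shMETTL14 0.229% and 0.231%, so the pairs did not overlap between lines. These are shares of raw library totals. Scaled by library size alone, the median log2 fold change in shSETD2 against shCtrl was -0.150 over members and -0.138 over all tested genes. In shMETTL14 the 2 medians were 0.142 and 0.0482. The lower share in shSETD2 thus went with a similar fall of the median gene. The members' share of counts fell under actinomycin D in each line. At 6 h it was 0.0752% ± 0.0022 in shCtrl, 0.0579% ± 0.0031 in shSETD2 and 0.0751% ± 0.00047 in shMETTL14 (SD, n = 2).

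**Figure D1:**
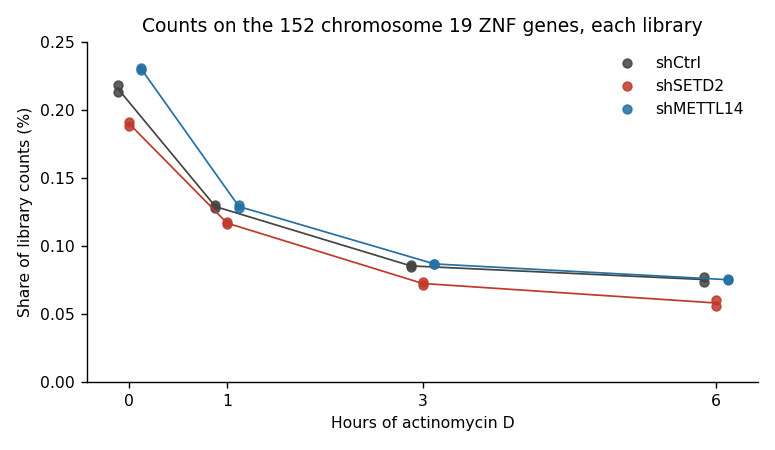
Share of each library's counts that fell on the 152 genes (y axis, percent, starting at 0) against hours of actinomycin D (x axis); each point is 1 library and lines join the mean of each pair. The shSETD2 libraries lie lowest at all 4 times, with means of 0.190% at 0 h and 0.0579% at 6 h. Shares are of raw library totals, without further scaling.

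Under transcription block the members lost RNA relative to the rest of the transcriptome in all 3 lines. In shCtrl a median of 58.7% of the 0 h level remained after 1 h, 41.0% after 3 h and 38.1% after 6 h. In shSETD2 the medians were 58.9%, 35.4% and 29.6%, and in shMETTL14 55.3%, 38.9% and 36.6%. These values are scaled to the other RNA of a library, so a gene that stayed level here fell at the average rate of the pool. Over all 14887 tested genes the medians stayed between 99.7% and 107.4%. Numbered ZNF genes on other chromosomes kept 44.8% at 6 h in shCtrl, 40.2% in shSETD2 and 43.1% in shMETTL14, whereas the other chromosome 19 genes stood at 127.1%, 129.96% and 131.6%.

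**Figure D2:**
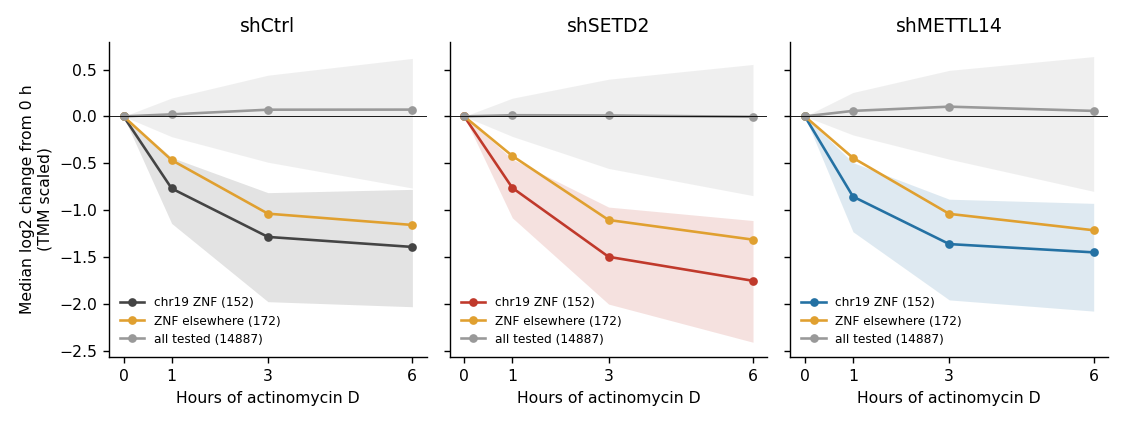
Median log2 change from 0 h (y axis, TMM-scaled) against hours of actinomycin D (x axis) in shCtrl, shSETD2 and shMETTL14, for the 152 members, the 172 numbered ZNF genes elsewhere and all 14887 tested genes; shading spans the quartiles of the members and of all genes. At 6 h the members' median was -1.39 in shCtrl, -1.75 in shSETD2 and -1.45 in shMETTL14, while that of all genes stayed near 0.

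The rate was measured as the slope of log2 level on hours, and a slope was called when its Benjamini-Hochberg adjusted p from edgeR's quasi-likelihood test over all genes was under 0.05. In shCtrl 126 of the 152 slopes were called negative and 8 positive, where 71.1% of all tested genes were called in either direction (33.2% negative, 37.8% positive). The members' median slope was -0.207 log2 per h against 0.0132 over all genes. In shSETD2 141 were negative and 4 positive (70.4% of all genes called, 36.2% negative and 34.2% positive), with a median of -0.265. In shMETTL14 129 were negative and 6 positive (73.1% of all genes called, 34.8% negative and 38.2% positive), with a median of -0.219. Fitted over 1, 3 and 6 h alone, 78 members were called negative in shCtrl and 76 in shMETTL14. In each line the members' median fell fastest in the first hour, so a single slope averages an uneven course.

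The steepest shCtrl slopes belonged to ZNF114, ZNF14, ZNF574 and ZNF627. ZNF114 stood at 42.6 and 39.0 CPM in shCtrl at 0 h, at 14.2 and 12.01 CPM after 1 h and at 2.95 and 2.72 CPM after 6 h. No library at a later time overlapped the 0 h pair, and the slope was -0.605 log2 per h (SE 0.0199). ZNF627 fell from 14.6 and 14.5 CPM to 2.40 and 2.02 CPM within 1 h, which left 15.2%. ZNF14 fell from 5.69 and 6.79 CPM to 0.786 and 0.761 CPM over the same hour, which left 12.4%. ZNF574 had a slope of -0.55 log2 per h (SE 0.0316). The slopes of these genes were also negative in both knockdown lines, between -0.50 and -0.73 log2 per h.

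A few members went the other way. ZNF90 rose in relative level from 24.5 and 26.9 CPM at 0 h to 50.4 and 49.3 CPM at 6 h in shCtrl, with a slope of 0.156 log2 per h (SE 0.0114). It was the only member called positive in shCtrl under each of 5 other settings (other size factors, library size alone, GC trend removed, no low-count filter, DESeq2). ZNF738, ZNF358 and ZNF83 were the next in slope, at 0.106, 0.0855 and 0.0808 log2 per h. ZNF83 stood at 15.1 and 14.5 CPM at 0 h and at 19.1 and 23.1 CPM at 6 h. A rise here means slower loss than the pool, since all values are relative.

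Among the members with a known function, ZNF274, which binds the 3′ ends of zinc finger genes and recruits SETDB1 there, fell from 22.8 and 22.97 CPM at 0 h to 3.84 and 3.79 CPM at 6 h in shCtrl. It kept 16.7% of its level in shCtrl, 15.5% in shSETD2 and 16.8% in shMETTL14, and neither slope difference was called (adjusted p = 0.57 and 0.855). ZNF91, a repressor of SVA retrotransposons, had slopes of -0.127, -0.203 and -0.131 log2 per h in shCtrl, shSETD2 and shMETTL14. ZNF146 fell at -0.288, -0.297 and -0.296 log2 per h, which differ by less than their SEs of up to 0.0138. ZNF224, a KRAB repressor first described at the aldolase A gene, had a slope of 0.0674 log2 per h in shCtrl, -0.00049 in shSETD2 and 0.0772 in shMETTL14.

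The authors' deposited table of half-lives lists 143 of the 152 members among 7772 genes, fewer than the 14887 tested here. The 9 members not listed include ZNF90, ZNF358 and ZNF428, whose slopes in shCtrl were called positive. They also include ZNF432 and ZNF682, whose slopes in shCtrl were not called. The values below thus leave out some of the members that fell least. In the authors' deposited table the members' median half-life was 3.44 h in shCtrl, 2.80 h in shMETTL14 and 2.43 h in shSETD2, against 6.02, 4.31 and 4.13 h over all genes listed. In the authors' deposited table the half-life was under 2 h for 9 members (6.29%) in shCtrl, 24 (16.8%) in shMETTL14 and 41 (28.7%) in shSETD2, against 5.35%, 10.02% and 10.4% of all genes listed. The median ratio of shSETD2 to shCtrl half-life in the authors' deposited table was 0.693 over the members and 0.702 over all genes. The same ratio for shMETTL14 was 0.813 over the members and 0.717 over all genes in the authors' deposited table.

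The slopes were then compared between lines. In shSETD2 the members' slopes tended to be more negative than in shCtrl. Of the 152 slope differences 135 were negative, with a median of -0.0701 log2 per h. It was -0.0128 over all genes and -0.0316 over the numbered ZNF genes elsewhere. The medians remaining were close at 1 h, at 58.7% in shCtrl and 58.9% in shSETD2. They were apart at 3 h (41.0% and 35.4%) and at 6 h (38.1% and 29.6%). Of the 152, 17 were called negative (11.2%) and 1, ZNF358, positive, where 7.94% of all genes were called (6.45% negative, 1.49% positive). Among the numbered ZNF genes elsewhere 22 of 172 were called negative (12.8%), a share no lower than that of the members. The share was 8.33% among all genes with a mean count of at least 50. With DESeq2's size factors in edgeR the members' split was 9 negative and 2 positive. Transcript GC content moved with this difference. Spearman's rho between GC content and the slope difference was 0.533 over the 152 members and 0.499 over 12608 tested genes with a transcript, all measured in the same libraries, and the members' median GC content was 42.5% against 48.4% over genes with a mean count of at least 50. With the trend on GC removed, a setting added after the data were seen, 8 members were called negative and the members' median was -0.0366 against -0.0012 over all genes.

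The count also rested on single libraries. It was 3 without shCtrl 0 h replicate 2, 4 without shCtrl 0 h replicate 1, 7 without shCtrl 6 h replicate 2, 9 without shSETD2 0 h replicate 1, 11 without shSETD2 1 h replicate 2, 11 without shSETD2 6 h replicate 1 and 45 without shSETD2 6 h replicate 2. Of the 17, 6 were called negative in the main fit and under all 5 other settings named above: ZNF121, ZNF460, ZNF587, ZNF614, ZNF761 and ZNF841. ZNF121 had a slope difference of -0.142 log2 per h (SE 0.0209, adjusted p = 0.000197) and ZNF614 of -0.129 (SE 0.0205, adjusted p = 0.000418). These 6 were picked out after their values were seen. The 5 settings do not include limma, the fit over 1, 3 and 6 h alone or the left-out libraries. The 6 calls are therefore not shown to hold under those.

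The largest differences named by the rule were those of ZNF682, ZNF566, ZNF181 and ZNF430. ZNF566 stood at 8.97 and 11.002 CPM in shCtrl at 0 h and at 4.77 and 4.26 CPM at 6 h. In shSETD2 it went from 9.49 and 9.60 CPM to 2.12 and 1.89 CPM. The lines overlapped at 0 h and did not overlap at 6 h, where 45.2% remained in shCtrl and 21.01% in shSETD2 (slope difference -0.160 log2 per h, SE 0.0407, adjusted p = 0.0183). ZNF566 lost the call in 6 alternatives: with the GC trend removed (-0.106), with limma, over 1, 3 and 6 h alone, and without shCtrl 0 h replicate 1 (-0.111), shCtrl 6 h replicate 1 or shSETD2 6 h replicate 1. ZNF430 (adjusted p = 0.0444), ZNF181 (0.0392) and ZNF682 (0.0386) passed narrowly, and each lost the call in at least 14 of the alternatives.

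ZNF841 was higher in shSETD2 at 0 h and had a more negative slope there, and both values rest on the same 0 h libraries, so they are not independent. This holds for every member, since each slope includes 0 h. Of the 17 members with a called negative difference, 6 were also called higher in shSETD2 at 0 h, ZNF430 and ZNF181 among them. None was called lower, and 11 were called in neither direction. It stood at 18.3 and 17.9 CPM in shCtrl and 26.8 and 25.7 CPM in shSETD2 at 0 h, without overlap. At 6 h it stood at 16.2 and 20.1 CPM in shCtrl and 15.1 and 18.98 CPM in shSETD2, and the pairs overlapped. Its slope difference was -0.107 log2 per h (SE 0.0224, adjusted p = 0.0045). ZNF841 overlaps ZNF432 on the same strand, so reads in the shared part cannot be assigned. ZNF358, the 1 member with a called positive difference (0.0890 log2 per h, SE 0.0223), has a transcript GC content of 69.1%, and it lost the call with the GC trend removed. At 0 h it was called lower in shSETD2 than in shCtrl (log2 fold change -0.50).

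In shMETTL14 no member's slope differed from shCtrl by edgeR's quasi-likelihood test, where 5.21% of all genes were called (1.85% positive, 3.35% negative). At an unadjusted p under 0.05 there were 6 positive and 14 negative members, DESeq2 called 0, and limma on log2(RPKM + 0.5) called 1 positive and 6 negative. The smallest adjusted p was 0.0539. The members' median difference was -0.0094 log2 per h against -0.0032 over all genes. Tested directly against shMETTL14, the shSETD2 slopes were more negative for 22 members and less negative for 1, where 9.61% of all genes were called (6.40% negative, 3.20% positive). The split was 11 and 5 with library size alone and 9 and 8 with limma. The 22 became 12 without shMETTL14 0 h replicate 1, 10 without shMETTL14 0 h replicate 2, 9 without shMETTL14 6 h replicate 2, 8 without shSETD2 6 h replicate 1 and 40 without shSETD2 6 h replicate 2.

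**Figure D3:**
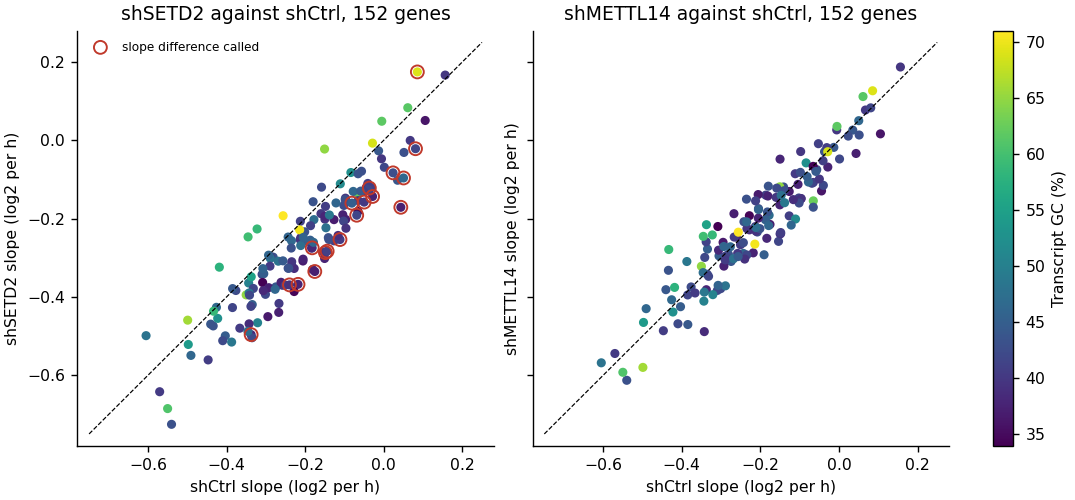
Slope of log2 level on hours in shSETD2 (left) and shMETTL14 (right) against the shCtrl slope for each of the 152 genes; colour gives transcript GC content in percent, the dashed line marks equal slopes, and red rings mark called slope differences. In the left panel 135 genes lie below the line and 18 are ringed, and in the right panel none is ringed.

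At 0 h, before any drug, the lines differed in level. Hepatocyte and fibroblast marker sums and the mitochondrial share also differed between shSETD2 and shCtrl, as given above. In shSETD2 18 members were higher and 17 lower than in shCtrl, where 40.6% of all tested genes were called (21.6% higher, 18.9% lower), and the members' median log2 fold change was 0.0065 against 0.0165 over all genes. This split depended on scaling: it was 13 higher and 23 lower with DESeq2's size factors in edgeR, and 8 higher and 44 lower with library size alone, under which the all-gene median was -0.138. With the GC trend removed it was 12 higher and 40 lower, with DESeq2 9 and 16, and with limma 8 and 41. Of the 18 rises 7, and of the 17 falls 14, were called in the same direction under all 5 other settings. Without shCtrl 0 h replicate 2 the rises numbered 7, without shCtrl 0 h replicate 1 they numbered 10, and without shSETD2 0 h replicate 1 the falls numbered 10.

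ZNF114 had the largest fall in both knockdown lines. It stood at 42.6 and 39.0 CPM in shCtrl, 5.93 and 5.65 CPM in shSETD2 and 15.4 and 14.8 CPM in shMETTL14, so that all 3 pairs were apart. Its level was 14.2% of shCtrl in shSETD2 (log2 fold change -2.81, SE 0.0984) and 37.1% in shMETTL14 (-1.43, SE 0.0853). The gene, at chr19:48675575-48790865 (GRCh37, plus strand), overlaps 5 other rows including CARD8 on the opposite strand, so its counts are uncertain. Its slopes under actinomycin D did not differ by the test between either knockdown line and shCtrl (adjusted p = 0.339 and 0.778).

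The other falls named in shSETD2 were ZNF579 (-0.78), ZNF428 (-0.61), ZNF524 (-0.55), ZNF333 (-0.52) and ZNF71 (-0.52 on the log2 scale). ZNF428 stood at 13.95 and 13.8 CPM in shCtrl and at 9.15 and 9.07 CPM in shSETD2. ZNF579 stood at 11.8 and 10.2 CPM and at 6.78 and 5.98 CPM. ZNF524 lost the call with DESeq2, with the GC trend removed (-0.32), and without shCtrl 0 h replicate 1, shSETD2 0 h replicate 1 or shSETD2 0 h replicate 2. The largest rises were ZNF550 (0.61), ZNF430 (0.60), ZNF714 (0.56), ZNF841 (0.54), ZNF441 (0.52) and ZNF552 (0.44). ZNF714 stood at 19.4 and 17.7 CPM in shCtrl and at 28.1 and 26.4 CPM in shSETD2. The pairs of these genes did not overlap between the lines. Without shCtrl 0 h replicate 2 the calls of ZNF714 (0.40), ZNF441 (0.37) and ZNF552 (0.29) were lost, that of ZNF441 was also lost with DESeq2, and that of ZNF552 with DESeq2, library size alone and limma. ZNF382, a KRAB repressor, was lower (log2 fold change -0.42, adjusted p = 0.02), whereas ZNF43 (0.02) and ZNF91 (0.23) did not pass the test.

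In shMETTL14, 37 members were called higher (24.3%) and 15 lower (9.87%) than shCtrl, where 48.1% of all genes were called (23.1% higher, 25.1% lower). The share called higher was thus near that of all genes, and the share called lower was below it. The members' median was 0.0874 against -0.0062 over all genes. The difference between the 2 medians was 0.0704 to 0.106 under the other scalings and tools tried. Size factors shift all genes of a comparison alike, so changing them could hardly move this difference. The numbered ZNF genes elsewhere had a median of -0.114, with 26 higher and 62 lower. With DESeq2's size factors in edgeR the members' split was 32 higher and 22 lower, and it was 43 and 12 with library size alone. The excess of rises over falls rested on single libraries. With any 1 of the 4 libraries left out there were fewer rises and more falls. Without shCtrl 0 h replicate 2 or shMETTL14 0 h replicate 1, rises and falls were about even in number. Of the 37 rises 24, and of the 15 falls 12, kept their call under all 5 other settings.

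The largest rises in shMETTL14 were ZNF846, ZNF528, ZNF808, ZNF329, ZNF432 and ZNF615. ZNF528 stood at 11.4 and 9.35 CPM in shCtrl, 8.78 and 8.49 CPM in shSETD2 and 19.3 and 18.6 CPM in shMETTL14. The shMETTL14 pair lay above all the others, at 183.2% of shCtrl (log2 fold change 0.88, SE 0.106). ZNF329 stood at 10.8 and 10.4 CPM in shCtrl and 19.04 and 17.8 CPM in shMETTL14, and ZNF846 at 2.45 and 2.07 against 4.15 and 4.20 CPM. ZNF350, which encodes a partner of BRCA1, rose from 6.44 and 6.28 to 10.2 and 9.77 CPM, and the imprinted gene ZNF331 from 13.4 and 13.5 to 19.4 and 18.6 CPM. ZNF274 was slightly higher (log2 fold change 0.20, adjusted p = 0.0404).

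The falls in shMETTL14 after ZNF114 were ZNF581 (-0.71), ZNF90 (-0.64), ZNF333 (-0.58), ZNF563 (-0.46) and ZNF784 (-0.43). ZNF784 (adjusted p = 0.0385) lost the call with DESeq2, library size alone and limma, and without shCtrl 0 h replicate 2 or shMETTL14 0 h replicate 1. ZNF90 stood at 24.5 and 26.9 CPM in shCtrl, 30.1 and 27.1 CPM in shSETD2 and 16.8 and 16.2 CPM in shMETTL14. The shMETTL14 pair was below the others, and the pair in shSETD2 did not overlap shCtrl (log2 fold change 0.15, adjusted p = 0.11). ZNF146 was lower in both knockdown lines, at 78.3% of shCtrl in shSETD2 and 74.9% in shMETTL14. Compared directly at 0 h, shSETD2 was lower than shMETTL14 for 42 members and higher for 15, where 52.2% of all genes were called (23% lower, 29.2% higher); with library size alone the split was 72 lower and 4 higher.

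**Figure D4:**
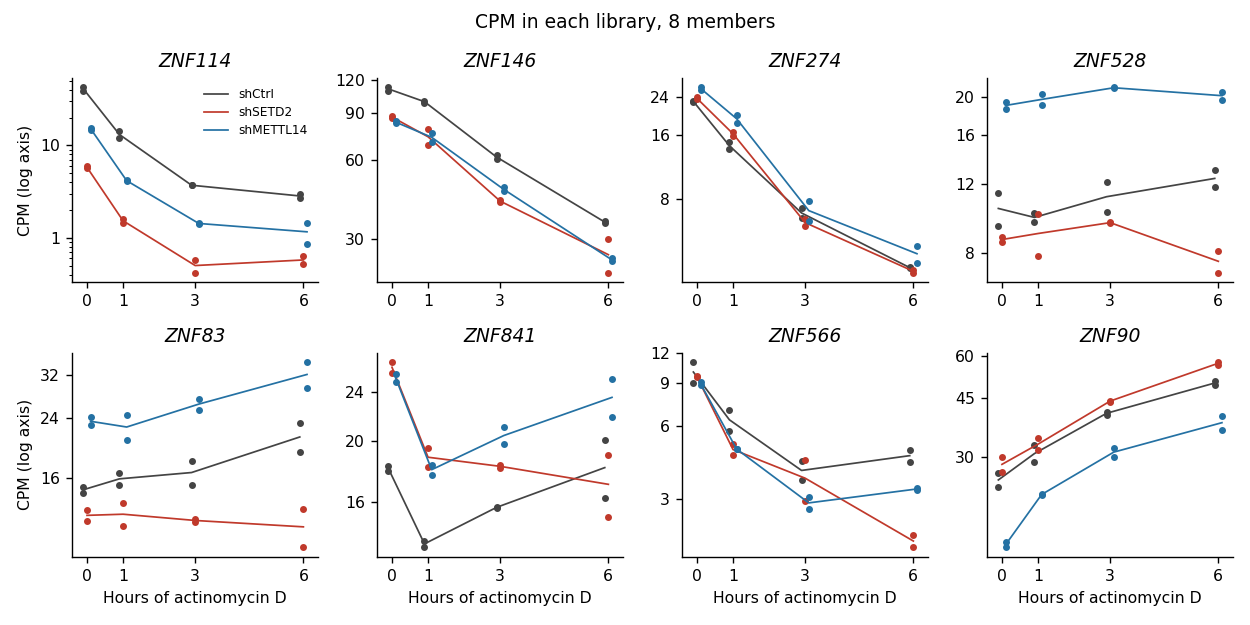
CPM in each library (points, log axis) with the pair means (lines) against hours of actinomycin D for ZNF114, ZNF146, ZNF274, ZNF528, ZNF83, ZNF841, ZNF566 and ZNF90 in the 3 lines. ZNF114 is separated between lines at every time, ZNF528 and ZNF83 are highest in shMETTL14, and ZNF566 in shSETD2 is lowest at 6 h with 2.12 and 1.89 CPM.

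Position along the chromosome was examined by joining all numbered ZNF genes of chromosome 19, of any count, into clusters. A gap of more than 1 Mb between gene starts opened a new cluster, a step chosen after the first results. Of 16 clusters the one at chr19:52074551-54083523 (GRCh37) held 28 members and was singled out after its values were seen, so no test is given. Both knockdown lines are compared with the same shCtrl libraries. In shMETTL14 at 0 h 14 of its 28 members were called higher and 0 lower, with a median of 0.28. The 124 other members had 23 higher and 15 lower, with a median of 0.0579. Of the 14 calls 12 held under all 5 other settings. Those 14 were ZNF577, ZNF613, ZNF350, ZNF615, ZNF614, ZNF432, ZNF841, ZNF528, ZNF808, ZNF83, ZNF816, ZNF160, ZNF347 and ZNF331. Uncalled neighbours lay among them, such as ZNF616, ZNF766 and ZNF480 between ZNF841 and ZNF528, and the 5 members from ZNF845 to ZNF813. The same cluster held 7 of the 17 negative slope differences of shSETD2, of which 3 held under all 5 other settings, and 10 of the 124 other members were also called. In ZNF808 28.6% of the windows were shared with another gene, so its counts are less certain than those of ZNF528, with 1.08%.

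**Figure D5:**
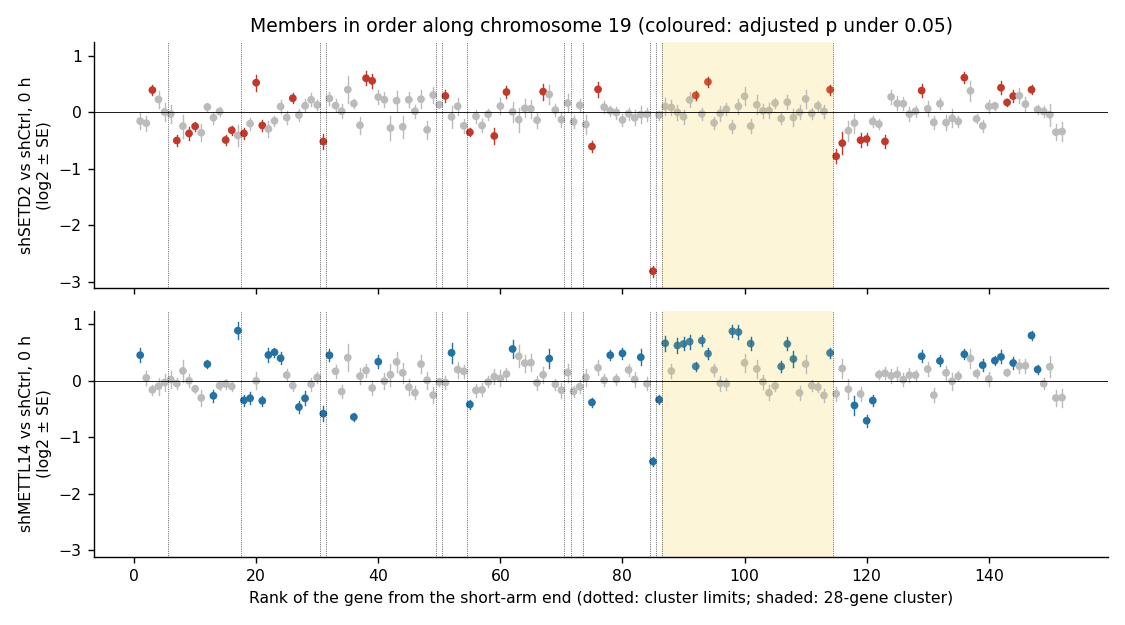
Log2 fold change at 0 h with its SE for shSETD2 (top) and shMETTL14 (bottom) against shCtrl, for the 152 members ranked along chromosome 19; coloured points passed an adjusted p of 0.05, dotted lines separate clusters and the shaded band is the 28-gene cluster. Of the 28 genes in the band 14 are coloured in the lower panel, all above 0, and 3 in the upper panel.

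Since 14 of these neighbours were higher in shMETTL14 at 0 h, the 250 bases before their annotated starts were searched on both strands for 6 motifs in the RefSeq promoters (GRCh38.p14), of which 138 matched a member. GGGCGG occurred in 65.9% of members against 42.6% of 35116 promoters, CCAAT in 49.3% against 32.0%, and TATAAA in 2.90% against 10.7%. ACTACAA occurred in 5.80% against 2.47%, CACGTG in 2.90% against 6.34%, and a palindromic NRF1 motif of 10 bases in 0 of 138 members against 1.03%. These windows also differed in CpG content, with a median of 16 CpG in members against 11 over all promoters, and its part in the motif shares was not tested. Of the 24 promoters from the cluster 18 held GGGCGG and 5 held CCAAT. Those lacking the first motif were ZNF577, ZNF613, ZNF350, ZNF615, ZNF614 and ZNF331, all called higher in shMETTL14. Every promoter of an uncalled cluster member held this motif, so its presence did not mark the members called higher. Its part in the rise was not tested. The promoters of ZNF528, ZNF808 and ZNF615, members with large rises in shMETTL14, are shown 5′ to 3′ on the gene's strand, with capitals on GGGCGG or CCAAT in either orientation.
ZNF528, chr19:52397599-52397848 (plus strand): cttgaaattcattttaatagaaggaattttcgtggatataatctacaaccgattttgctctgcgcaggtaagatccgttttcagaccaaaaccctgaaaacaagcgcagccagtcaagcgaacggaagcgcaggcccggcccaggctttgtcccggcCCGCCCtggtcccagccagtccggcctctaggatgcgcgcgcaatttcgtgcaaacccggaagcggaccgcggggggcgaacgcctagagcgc
ZNF808, chr19:52527418-52527667 (plus strand): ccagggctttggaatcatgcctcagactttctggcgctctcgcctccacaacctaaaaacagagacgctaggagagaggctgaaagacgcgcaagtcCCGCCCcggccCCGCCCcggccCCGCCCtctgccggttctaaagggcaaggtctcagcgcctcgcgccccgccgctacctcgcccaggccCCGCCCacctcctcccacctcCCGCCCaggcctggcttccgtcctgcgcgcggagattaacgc
ZNF615, chr19:52008212-52008461 (minus strand): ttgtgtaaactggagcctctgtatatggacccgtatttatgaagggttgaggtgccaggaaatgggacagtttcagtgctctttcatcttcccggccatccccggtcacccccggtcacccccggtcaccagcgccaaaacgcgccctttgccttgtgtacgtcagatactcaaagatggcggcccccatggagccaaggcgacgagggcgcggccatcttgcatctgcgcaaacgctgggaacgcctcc
ZNF808 held GGGCGG 5 times and ZNF528 held it 1 time, all on the opposite strand, where it reads ccgccc in these lines. ZNF615 held neither motif in this window.

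The genes through which KRAB proteins act were read from a list of 25 corepressor and heterochromatin genes, all of them tested. At 0 h 4 of them were higher and 9 lower in shSETD2, where 21.6% of all genes were higher and 18.9% lower. In shMETTL14 1 was higher and 11 lower, where the shares of all genes were 23.1% and 25.1%. TRIM28, the corepressor itself, stood at 253.2 and 252.1 CPM in shCtrl, 223.0 and 233.6 CPM in shSETD2 and 186.9 and 179.6 CPM in shMETTL14. It was lower in shMETTL14 (log2 fold change -0.46, adjusted p = 4.04e-05) and did not pass the test in shSETD2 (-0.15, adjusted p = 0.142). SETDB1 was lower in both (-0.28 and -0.19). The smallest p-values in shSETD2 were those of CHD3, a chromatin remodeller (-0.66), and SUV39H2, an H3K9 methyltransferase (0.65). In shMETTL14 they were those of HDAC2, a histone deacetylase (-0.50), and EHMT1, another H3K9 methyltransferase (-0.37). ATRX, a chromatin remodeller found with ZNF274 at zinc finger genes, stood at 0.01 and -0.07 and did not pass the test. Of the slope differences 4 were negative in shSETD2, with the smallest p-values for HDAC2 and MORC2, and 2 in shMETTL14, those of MORC2 and EHMT1, where 6.45% and 3.35% of all genes were negative.

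The sequence features of the members were set beside these results as descriptions. The 17 members called with a faster loss in shSETD2 had a median GC content of 40.4% and 16 of them held the linker-coding run, against 42.9% and 103 of 135 for the other members. Their median of the mean counts was 268.4 against 124.7, so the called members were also the more deeply counted. Spearman's rho between the number of linker runs and the shSETD2 slope difference was -0.447 over the 152 members, which share libraries and base composition. The 5-base sequence GGACT, a common m6A context, was present at a median of 0.718 per kb of member transcript against 0.924 over genes with a mean count of at least 50. Its rho with the shMETTL14 change at 0 h was -0.096 and with the shMETTL14 slope difference -0.0071. Among the 127 members with at most 10% shared windows, 29 were higher and 13 lower in shMETTL14 at 0 h, and 13 had a called negative slope difference in shSETD2.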

How the data were processed

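Gene counts were used as the authors deposited them; the build was GRCh37, and HTSeq 0.6.1p1, TopHat and cutadapt were used, per the submitters' processing notes. No source used here states the annotation release or the strand setting. RPKM values are deposited by the authors in the same table, and each equalled the count divided by exon length and by the library's table total within 0.1%. A second table holds half-lives in hours (another unit), as deposited by the authors. No spike-in rows were present (0 ERCC rows), 0 value columns lacked a sample, and 0 rows named no gene, so all values are relative.

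edgeR 4.0.16 (in R 4.3.3, with TMM scaling, filterByExpr and robust two-sided quasi-likelihood F tests) was fitted to all 24 libraries as 12 group means with 12 residual degrees of freedom; 14887 genes, including all 152 members, were tested at an adjusted p of 0.05 (Benjamini-Hochberg over all genes). CPM is TMM-scaled. Slopes regress a line's 4 group means on hours by least squares. Scripts were checked on simulated data. Alternatives used other size factors, no filter, DESeq2 1.42.0, limma 3.58.1 on log2(RPKM + 0.5), a replicate block, 1 to 6 h only, each library left out and, added after the data were seen, a GC trend removed (loess span 0.5).

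The members and lists were chosen with earlier results of these data known. Named members are the 6 largest rises and falls per knockdown line at 0 h with separated pairs, the 4 most negative and positive called slope differences per line and shCtrl slopes, 10 members of a fixed list and the 3 highest in RPKM. Position clusters, linker runs, shared windows, GC, GGACT and promoter motifs were added later; the motifs were first searched on windows that reached past the start site.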

Additional observations from a re-analysis of the deposited data

Results flagged for a closer look

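For the members named by rule, the difference between the knockdown lines was tested directly with edgeR's quasi-likelihood test (adjusted p under 0.05), and 29 differences passed. They were 23 of 41 members for the level at 0 h, where 52.2% of all genes were called, and 6 of 41 for the slope, where 9.61% of all genes were called. The 41 were in part named for their changes against shCtrl, so these shares are descriptions. Each value below is shSETD2 minus shMETTL14, so a negative value means lower in shSETD2. Both lines are measured against the same shCtrl libraries, which cancel in this difference.

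At 0 h most of the differences were negative, on the log2 scale. The largest were ZNF114 (-1.39), ZNF846 (-1.30) and ZNF528 (-1.14), followed by ZNF83 (-0.90), ZNF524 (-0.77), ZNF808 (-0.76), ZNF432 (-0.74), ZNF350 (-0.73) and ZNF71 (-0.65). Smaller ones were ZNF579 (-0.55), ZNF382 (-0.49), ZNF615 (-0.47), ZNF358 (-0.45), ZNF224 (-0.43), ZNF329 (-0.40), ZNF444 (-0.32) and ZNF428 (-0.22). The members higher in shSETD2 were ZNF90 (0.79), ZNF714 (0.68), ZNF441 (0.52), ZNF430 (0.42), ZNF563 (0.41) and ZNF181 (0.32).

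Slopes under actinomycin D were more negative in shSETD2 than in shMETTL14 for ZNF441 (-0.252 log2 per h), ZNF43 (-0.170), ZNF808 (-0.121), ZNF83 (-0.104), ZNF841 (-0.0939) and ZNF224 (-0.0777). ZNF83 was lower at 0 h and had a more negative slope in shSETD2 than in shMETTL14. Both values rest on the same 0 h libraries, so they are not independent. Against shCtrl the level of ZNF83 at 0 h in shSETD2 was not called (log2 fold change -0.24). At 6 h ZNF83 stood at 54.8% of shCtrl in shSETD2 and at 151.9% in shMETTL14.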

How the results depend on the processing

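Counts of called members were recomputed under each alternative, higher before lower. At 0 h shSETD2 against shCtrl (18, 17) gave 9 and 16 with DESeq2, 8 and 44 with library size alone, 8 and 41 with limma and 40 lower with the GC trend removed. shMETTL14 against shCtrl (37, 15) gave 24 higher with DESeq2 and 24 lower with the GC trend removed. shSETD2 against shMETTL14 (15, 42) gave 4 and 72 with library size alone and 4 and 67 with limma. Negative slopes fell to 78 in shCtrl and 76 in shMETTL14 over 1, 3 and 6 h alone. Positive slopes in shCtrl (8) were 1 with library size alone and 1 with limma; in shSETD2 (4) 7 with the GC trend removed and 2 with library size alone; in shMETTL14 (6) 14 with the GC trend removed, 3 with library size alone, 3 with limma and 12 over 1, 3 and 6 h. The shSETD2 slope difference (1, 17) gave 2 and 8 with DESeq2, 0 and 8 with the GC trend removed, 2 and 9 with DESeq2's size factors in edgeR, 10 negative with library size alone, 3 and 10 with limma, 2 and 26 with no filter, and 0 and 8 over 1, 3 and 6 h. The shMETTL14 slope difference (0, 0) gave 1 and 3 with the GC trend removed, 5 negative with library size alone and 1 and 6 with limma. Between the knockdown lines (1, 22) it gave 14 negative with DESeq2, 3 positive with the GC trend removed, 5 and 11 with library size alone, 8 and 9 with limma and 0 positive with no filter. The cause was not tested.

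Leaving out 1 library at a time, with the lone sample assumed to vary like the other groups, gave 7 to 15 higher and 10 to 25 lower in shSETD2, 19 to 25 higher and 19 to 20 lower in shMETTL14, and 10 to 11 and 31 to 38 between them. Slopes gave 6 to 8 and 121 to 132 in shCtrl, 3 to 4 and 137 to 141 in shSETD2, and 5 to 7 and 127 to 129 in shMETTL14. Slope differences gave 0 to 5 and 3 to 45 in shSETD2, 0 to 3 and 0 to 2 in shMETTL14, and 0 to 6 and 8 to 40 between them.

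Replicate numbers were not taken to pair the samples: over 66 pairs of groups the correlation of the replicate differences had a median of 0.0179 (-0.0842 to 0.202), and 9 of the 66 were over 0.1. With the replicate block the shSETD2 slope difference gave 2 and 29, the shMETTL14 slope difference 1 and 2, and the other counts moved by less than 1.5 times. Of the recomputed values for named members 425 kept their side of the threshold, 85 lost the call and 0 reversed. Depth limits the members most at late times, where the lowest quartile of RPKM in shSETD2 at 6 h was 0.223.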
